A study of Mus musculus with 96 samples.

Results

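Reduced representation bisulfite sequencing (RRBS) of mouse fat and muscle progenitor cells listed 35198 regions as differing in methylation between groups of samples, and 1995 of them lay in distal intergenic DNA. The members were the rows of the authors' 6 deposited tables whose annotation read distal intergenic, in the tables for radiation, diet and their interaction in each of 2 cell types. They covered 1634 distinct intervals in 1142 loci, counting neighbours within 1000 bases once, and had 1000 different nearest genes. The animals were C57Bl/6 mice, untreated (Ctrl) or irradiated (Irr), and fed chow (Chow) or a high fat diet (HFD). The stromal vascular fraction (SVF), the mixed non-fat cells of adipose tissue, was sampled in 6 Ctrl Chow, 7 Ctrl HFD, 4 Irr Chow and 7 Irr HFD libraries. Satellite cells, which are muscle stem cells, were sampled in 6 libraries of each of the same 4 groups. The sources used here give no dose, age or sex, and do not say whether a library pooled animals.

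Most CpG cytosines of a mammalian genome are methylated, while CpG islands at gene starts are usually free of it. DNA far from gene starts holds enhancers, whose methylation is often intermediate and differs between cell types, beside inactive sequence that is mostly methylated. RRBS cuts DNA with MspI at CCGG and reads the CpG-rich ends of the fragments, so that it samples islands densely and distal DNA thinly.

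Each row used here gave an interval, a median p-value, the median difference in methylation between the groups compared and the nearest gene. Differences are given in percentage points with the sign the authors deposited. The sources used here do not say which group is subtracted from which, so a positive sign names no treatment. The 3 tables of a cell type come from the same libraries, and their results are set side by side, not counted as separate evidence. With 1 difference per region, the spread between animals and the depth behind each value are unknown, and no SD or test can be given. Markers of satellite cells were looked up in the expression table of the same study. It listed Cdh15, Itga7, Myog and Ncam1, 4 genes of muscle precursors, at abundances of 9.10 to 10.67 on the log2 CPM scale. Pax7, Myf5, Myod1, Vcam1 and Des were looked up too and were not listed. Only listed genes have a level there, so satellite cell identity was checked in part only. No expression table was used for SVF, whose label was not checked.

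The label distal intergenic is the authors' and rests on their gene models. Against RefSeq genes of GRCm38.p6, which has the coordinates of mm10, 530 of the 1634 distinct intervals (32.4%) lay inside a gene, 274 of them inside a protein-coding gene and 255 inside a long non-coding RNA gene. Only 67 intervals (4.10%) touched a RefSeq promoter window, from 250 bases before to 50 bases after a start, and 0 touched a microRNA hairpin. In neither a gene nor a promoter window lay 1076 intervals (65.9%). The sequences below were read from the promoter windows in RefSeq GRCm38.p6. They were picked among windows whose regions had the largest differences, and do not stand for distal DNA at large. They run 5′ to 3′ on the strand of the named gene, with the listed region in capitals. Sgms2 (chr3:131490181-131490480, minus strand) and R3hdm2 (chr10:127380418-127380717, plus strand) hold long listed regions in CpG-dense DNA. Gm10419 (chr5:108367687-108367986, plus strand) holds a listed region at the edge of its window. In Pik3ca (chr3:32396815-32397114, plus strand) and 2310015A16Rik (chr17:31912395-31912694, minus strand) the listed region was a single base, which on the strand printed is the G of a CpG in Pik3ca and the C of one in 2310015A16Rik.
Sgms2: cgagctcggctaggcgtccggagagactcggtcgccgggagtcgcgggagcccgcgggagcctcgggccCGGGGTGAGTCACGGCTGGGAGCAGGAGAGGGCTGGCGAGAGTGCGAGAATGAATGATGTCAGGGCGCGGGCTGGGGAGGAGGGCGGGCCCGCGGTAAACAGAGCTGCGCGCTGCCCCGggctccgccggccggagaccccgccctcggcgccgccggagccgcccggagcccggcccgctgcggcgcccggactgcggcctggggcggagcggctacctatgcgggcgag
R3hdm2: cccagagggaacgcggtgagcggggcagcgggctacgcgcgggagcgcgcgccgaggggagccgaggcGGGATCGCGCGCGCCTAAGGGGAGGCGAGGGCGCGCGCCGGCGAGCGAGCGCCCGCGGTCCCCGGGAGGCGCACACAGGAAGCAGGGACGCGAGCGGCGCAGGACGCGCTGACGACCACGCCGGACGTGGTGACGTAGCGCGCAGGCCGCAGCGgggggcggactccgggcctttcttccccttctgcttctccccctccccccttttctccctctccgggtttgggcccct
Gm10419: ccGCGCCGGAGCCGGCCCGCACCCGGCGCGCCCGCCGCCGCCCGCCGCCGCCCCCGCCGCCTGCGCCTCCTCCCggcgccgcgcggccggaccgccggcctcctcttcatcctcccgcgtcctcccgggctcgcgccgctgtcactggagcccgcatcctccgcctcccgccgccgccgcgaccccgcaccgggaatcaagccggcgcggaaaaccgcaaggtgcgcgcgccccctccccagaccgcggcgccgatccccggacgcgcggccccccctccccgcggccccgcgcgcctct
Pik3ca: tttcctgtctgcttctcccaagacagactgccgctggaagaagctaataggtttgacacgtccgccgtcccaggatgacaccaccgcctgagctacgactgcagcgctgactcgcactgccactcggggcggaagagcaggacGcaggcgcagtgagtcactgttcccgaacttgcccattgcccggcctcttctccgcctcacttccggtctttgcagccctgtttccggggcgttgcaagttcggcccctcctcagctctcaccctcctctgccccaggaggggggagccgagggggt
2310015A16Rik: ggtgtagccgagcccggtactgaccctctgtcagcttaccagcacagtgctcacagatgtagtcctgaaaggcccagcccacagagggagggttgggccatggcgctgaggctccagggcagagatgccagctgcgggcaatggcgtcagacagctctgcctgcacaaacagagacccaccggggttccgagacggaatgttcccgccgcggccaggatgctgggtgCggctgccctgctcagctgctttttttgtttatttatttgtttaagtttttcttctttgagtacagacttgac

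These windows held 44 CpGs for Sgms2, 47 for R3hdm2, 60 for Gm10419, 20 for Pik3ca and 12 for 2310015A16Rik. The authors' deposited radiation tables gave 38.1 points for the Sgms2 region and 33.5 points for the position at 2310015A16Rik in SVF, and -33.6 points for R3hdm2 in satellite cells. The deposited diet tables gave -18.96 points for Gm10419 in SVF and -34.2 points for Pik3ca in satellite cells. The MspI site CCGG, which reads the same on both strands, stood in 45 of the 45 windows that overlap a distal region and in 52.8% of all 32851 promoter windows. The median number of CpGs was 19 in those 45 windows and 7 in all. Counting a region once for each window it met, all 73 starts and 62 ends that fell inside windows lay on the C or the G of a CpG.

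The share of listed rows that were distal intergenic was 5.63% in the SVF radiation table, 7.44% in diet and 7.46% in interaction. In satellite cells it was 4.70%, 4.78% and 7.47%. Distal regions had median lengths of 21 bases in SVF radiation, 22 in SVF diet, 18.5 in satellite radiation and 20 in satellite diet, against 42, 36, 29 and 30 over all listed regions. A single position made up 25.9%, 29.9%, 24.5% and 26.3% of them, against 15.3%, 18.3%, 21.5% and 22.2%. Introns were much like distal regions in the same tables. Their median lengths were 21.5, 23, 15 and 15 bases, and their shares of single positions 26.8%, 28.1%, 25.5% and 26.7%. In the interaction tables single positions were 52.2% of distal regions in SVF (23.8% of all listed) and 27.8% in satellite cells (20.4%). Introns had 48.2% and 40.9% there.

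Distal regions held another mix of sizes of difference than the whole lists did, side by side and with no test. Limits of 1, 10 and 30 points, chosen after the values were seen, sorted the regions into 4 sizes. Differences of 10 to 30 points took 96 of the 309 distal regions in SVF radiation (31.1%, against 8.61% of all listed) and 341 of 595 in SVF diet (57.3%, against 41.3%). In satellite cells they took 148 of 462 in radiation (32.0%, against 17.4%) and 129 of 460 in diet (28.0%, against 16%). The interaction tables had 4 of 90 in SVF (4.44%, against 6.21%) and 9 of 79 in satellite cells (11.4%, against 4.26%).

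Introns had larger shares of such differences than distal regions in the radiation and diet tables, at 37.7% in SVF radiation, 68.8% in SVF diet, 44.02% in satellite radiation and 39.8% in satellite diet. Core promoters had 5.25%, 36.2%, 14.8% and 13.8% in the same tables, so that distal regions lay between both classes in all 4. In the interaction tables introns had 12.5% in SVF and 15.9% in satellite cells, and core promoters 4.93% and 2.27%, so that distal regions lay below both in SVF and between them in satellite cells.

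Differences under 1 point were fewer among distal regions. They made up 31.1% in SVF radiation (58.6% of all listed), 10.9% in SVF diet (26.9%), 25.1% in satellite radiation (35.2%) and 27.4% in satellite diet (38.9%). The interaction tables had 18.9% in SVF (42.8%) and 31.6% in satellite cells (49.2%). Introns had still lower shares under 1 point in every table. These were 24.6%, 6.46% and 7.14% in SVF radiation, diet and interaction, and 13.5%, 19.9% and 11.4% in satellite cells. Differences of 1 to 10 points made up 20.4% (10.7%), 17.5% (12.7%) and 10% (16.1%) of distal regions in the SVF radiation, diet and interaction tables. In satellite cells they made up 19.3% (12.9%), 18.7% (13.2%) and 36.7% (18%).

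Differences of 30 points or more were fewer among distal regions in 5 of the 6 tables. In SVF they took 54 regions in radiation (17.5%, against 22% of all listed) and 85 in diet (14.3%, against 19.2%). In satellite cells they took 109 in radiation (23.6%, against 34.5%), 119 in diet (25.9%, against 31.9%) and 16 in interaction (20.3%, against 28.6%). The SVF interaction table was the exception, with 60 of 90 distal regions at this size (66.7%, against 35%). Introns of that table had 37 of 56 (66.1%). In the radiation and diet tables introns had lower shares than distal regions, 15.9% and 12.5% in SVF and 17.0% and 15.4% in satellite cells. In satellite interaction they had 29.5%.

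**Figure D1:**
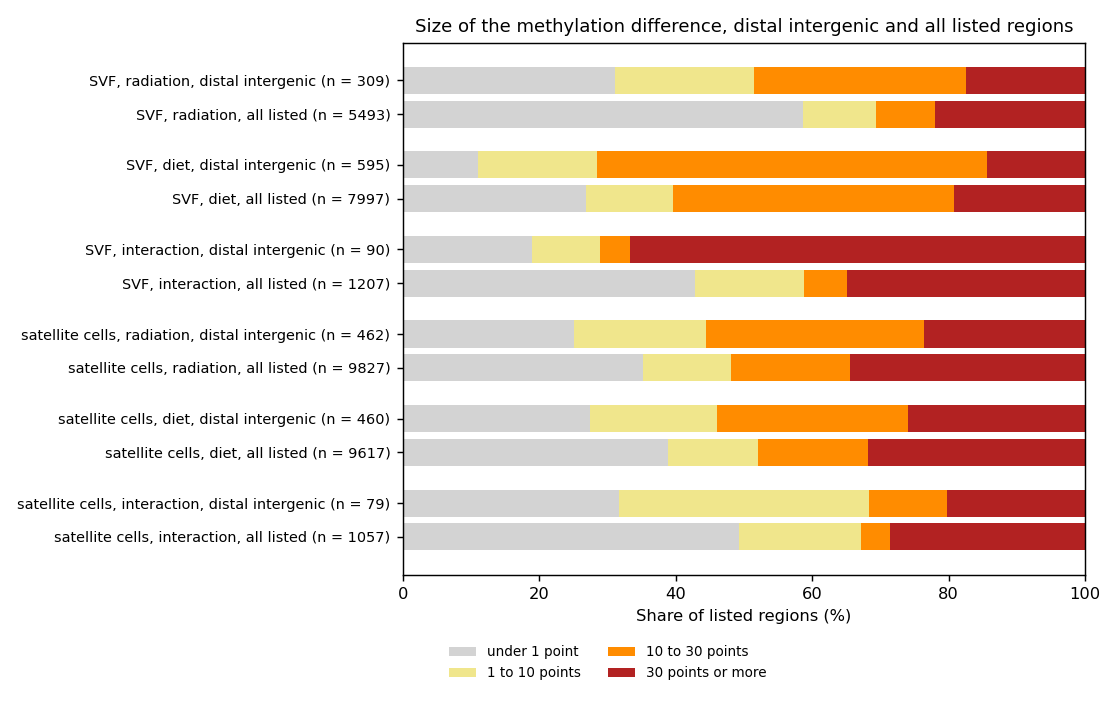
Share of listed regions (%) by the size of the methylation difference in points, for distal intergenic regions and all listed regions in each of the 6 tables, with n beside each bar. The segment for under 1 point is narrower for distal regions in every table, for example 10.9% against 26.9% in SVF diet.

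The radiation comparison in SVF listed 309 distal regions, 165 with a positive and 144 with a negative difference, so that 53.4% were positive against 60.7% of all listed regions. The median size of the difference was 9.46 points, against 0.532 points over all listed regions, and 150 distal regions differed by 10 points or more (48.5%, against 30.7%). Direction went with size. Of the 54 regions at 30 points or more 50 were positive (92.6%, against 96.8% of all listed regions of that size), and those at 10 to 30 points split 47 and 49. Those at 1 to 10 points leaned the other way, with 22 positive and 41 negative. The positive share was 34.9% there, against 45.7% of all listed regions of that size. Introns of that size had 10 positive and 20 negative differences. Distal regions under 1 point split 46 and 50. Over all listed regions 44.2% were positive at 10 to 30 points and 52.3% under 1 point.

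The largest positive differences lay close together in size. The authors' deposited SVF radiation table gave 45.3 points at a single position 3846 bases upstream of the mitochondrial carrier gene Slc25a51, and 44.9 points near Zkscan3, a zinc finger gene. A region on chromosome 17 from 83861649 to 83861694, nearest to Haao, an enzyme of tryptophan breakdown, had 43.5 points in the same deposited table. Regions 5483 bases upstream of Zmiz2, a coregulator gene, and 6532 bases from the start of the forkhead transcription factor gene Foxd2 had 43.4 and 43.1 points there. The Zmiz2 region lay inside a RefSeq protein-coding gene and the Slc25a51 and Foxd2 regions inside other RefSeq genes, and the Haao and Zkscan3 regions in no RefSeq gene.

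The largest negative differences were smaller in size, and 3 of the 4 described here lay more than 50000 bases from a start. In the authors' deposited table they were -36.9 points near B230209E15Rik and -31.7 near Parvg, an actin-binding adhesion protein gene. Dcstamp, a gene for a membrane protein needed for the fusion of osteoclasts, followed with -31.5 points. The ubiquitin ligase gene Ube3a, which is imprinted in neurons, had -29.7 points in the deposited table. The B230209E15Rik region lay 129832 bases downstream on chromosome 7 from 61485490 to 61485495. All 4 lay in no RefSeq gene.

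The diet comparison in SVF held the most distal regions, 595, and the most uneven split. The difference was positive in 399 and negative in 196 (67.1%, against 43.2% of all listed). Their median size was 17.0 points, close to the 17.2 points of all listed regions, and 426 differed by 10 points or more (71.6%, against 60.4%). The 2 sets parted at 10 to 30 points, where 236 of 341 distal regions were positive (69.2%) against 28.6% of the 3300 listed regions of that size. At the other sizes they lay close to each other. At 30 points or more 80 of 85 distal regions were positive (94.1%, against 99.0%), at 1 to 10 points 74 of 104 (71.2%, against 67.8%), and under 1 point 9 of 65 (13.8%, against 14.3%). Introns at 10 points or more had 304 positive and 61 negative differences in the same table, and core promoters 1549 and 2047.

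Regions near Barhl1, Nsun2 and Fgfr3 had the largest positive differences. The authors' deposited SVF diet table gave 60.6 points at a region 27529 bases upstream of Barhl1, a homeobox gene of sensory neurons, on chromosome 2 from 28943969 to 28944014. Near Nsun2, an RNA methyltransferase gene, it gave 52.5 points, and near the growth factor receptor gene Fgfr3 51.7 points. Single positions near Pnrc1, a nuclear receptor coactivator gene, and the chemokine gene Ccl1 had 46.6 and 45.8 points in the deposited table. None of these 5 lay in a RefSeq gene.

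The largest negative differences of the diet table were again smaller. The authors' deposited table gave -44.3 points near Polr3k, an RNA polymerase III subunit gene, on chromosome 2 from 181896641 to 181896668. A position 615664 bases upstream of 4921511H03Rik had -38.4 points, and a region 256202 bases upstream of Izumo3, a sperm protein gene, -37.3 points in that deposited table. The regions near Celrr, a long non-coding RNA gene, and Otoa, a gene of the inner ear, had -32.4 and -30.4 points. Of these 5, only the Polr3k region lay inside a RefSeq gene.

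In satellite cells the radiation table listed 462 distal regions, 211 positive and 251 negative (45.7%, against 48.1% of all listed). The median size was 12.5 points, against 13.8, and 257 differed by 10 points or more (55.6%, against 51.9%). Of these, 107 were positive and 150 negative (41.6% positive, against 46.0% of all listed of that size). Introns had 61 positive and 97 negative there. Both signs occurred at every size. The difference was positive in 49 of 109 regions at 30 points or more (48.1% of all listed of that size), 58 of 148 at 10 to 30 points (41.8%), 31 of 89 at 1 to 10 points (45.7%) and 73 of 116 under 1 point (52.0%).

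The named regions of that table reached about 40 points on both sides. The authors' deposited table gave 41.0 points near Sp8, a limb and brain transcription factor gene, on chromosome 12 from 118794560 to 118794589. A pair of neighbouring regions nearest to Nlgn1, a synaptic adhesion gene whose start lies 1008980 bases away, had 39.5 points each in the deposited table. A region near the microRNA gene Mir6951 had 38.8 points, and a position near the gap junction gene Gjb5 38.5 points. On the negative side the deposited table gave -40.9 points near 1700007F19Rik, -39.5 near 4930452G13Rik and -39.4 near Zmat3, a target gene of p53. The regions near Smug1, a DNA repair glycosylase gene, and Myoz1, a gene for a protein of the muscle Z-disc, had -34.6 points each. The Zmat3 and Myoz1 regions lay inside RefSeq protein-coding genes, despite their annotation.

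The satellite diet table listed 460 distal regions, 233 positive and 227 negative (50.7%, against 51.9%). The median size was 11.97 points, against 5.26 over all listed regions, and 248 differed by 10 points or more (53.9%, against 47.9%). Of these, 112 were positive and 136 negative (45.2% positive, against 49.5% of all listed of that size). Introns had 63 positive and 59 negative there. The positive share was 42.9% at 30 points or more (50.9% of all listed of that size) and 47.3% at 10 to 30 points (46.6%). In SVF diet the latter share was 69.2%. Whether the cell types differ in this was not tested, since the groups behind each sign are unnamed.

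The largest distal difference of the satellite diet table was at a position 24729 bases upstream of Smndc1, a splicing factor gene, on chromosome 19 at 53415302, where the authors' deposited table gave 55.7 points. Next came a position near Tnks, a telomere-associated ADP-ribose polymerase gene, with 40.4 points. The Nlgn1 and Mir6951 intervals of the radiation table followed, at 39.3, 39.2 and 39.1 points in the deposited diet table. The largest negative difference, -40.7 points, was at a position 115886 bases downstream of Nr4a2, an orphan nuclear receptor gene. After it the deposited table gave -34.6 points at regions near Smug1, Myoz1 and Cxxc5, a gene for a CXXC zinc finger protein. Of the positions with the largest size on either side, Smndc1 and Nr4a2, neither lay in a RefSeq gene.

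The interaction tables were small. In SVF 46 of 90 distal regions had a positive and 44 a negative difference (51.1%, against 32.2% of all listed). Among those differing by 10 points or more, 36 were positive and 28 negative, a total of 64 (71.1%, against 41.2%). Core promoters in that table had 1 positive and 335 negative at this size, and introns had 27 positive and 17 negative. All listed regions had 86 positive and 411 negative. Distal regions inside a RefSeq gene split 3 positive and 21 negative, and those in no RefSeq gene 43 positive and 23 negative. The median size for distal regions was 43.8 points, against 1.65 over all listed. In satellite cells 43 of 79 were positive (54.4%, against 44.8%), with a median size of 3.03 points, against 1.06. At 10 points or more, 8 were positive and 17 negative, a total of 25 (31.6%, against 32.8%), while core promoters had 5 positive and 251 negative. All listed regions of the satellite table had 37 positive and 310 negative at this size. Of the 25 distal regions under 1 point 23 were positive (92%, against 78.5% of all listed of that size).

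The 3 largest differences on each side of each interaction table were 56.5 to 66.4 points in size. Among distal regions of the radiation and diet tables only the Barhl1 region reached this size. In the authors' deposited SVF interaction table the positive side was led by Mageb1, a cancer-testis antigen gene on chromosome X, with 60.3 points. Epha5, an axon guidance receptor gene, had 59.4 points, and Plekho2 58.9 points. On the negative side that deposited table gave -62.1 points near the transporter gene Mfsd7b, -61.8 near the imprinted cell cycle inhibitor gene Cdkn1c, and -60.7 near the homeobox gene Irx1. In satellite cells the deposited table gave 66.4 points near the bile acid transporter gene Slc10a2, 58.8 near Olfm4 and 58.4 near Gm5083. Its lowest were Amot, a cell junction protein gene on chromosome X, with -58.2 points, Slc45a4 with -57.2 and Ripply3 with -56.5 points in the deposited table. These last 3 lay inside RefSeq protein-coding genes.

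Large differences piled up at a few values. In SVF radiation 16 of the 97 distal regions with a positive difference of 10 points or more lay from 38 to 39 points, the fullest bin of 1 point, and in SVF diet 25 of 316. Negative differences of SVF diet peaked from 20 to 21 points in size, with 19 of 110 regions. In satellite cells the bin from 34 to 35 points was the fullest for positive differences, with 13 of 107 regions in radiation and 15 of 112 in diet. For negative differences the fullest bins were 33 to 34 points in radiation (21 of 150) and 34 to 35 points in diet (27 of 136). Over all listed regions the SVF peaks were at the same values and held larger shares, with 37.3% of 1381 positive differences in radiation, and 26.1% of 2460 positive and 26.7% of 2372 negative ones in diet. In satellite cells the bin from 34 to 35 points was the fullest for both signs in both tables over all listed regions, with 23.8 to 25.0% of differences. Group sizes ran from 4 to 7 in SVF and were 6 in satellite cells. Values of single libraries were not analysed here, so the part of single libraries in these values was not tested.

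**Figure D2:**
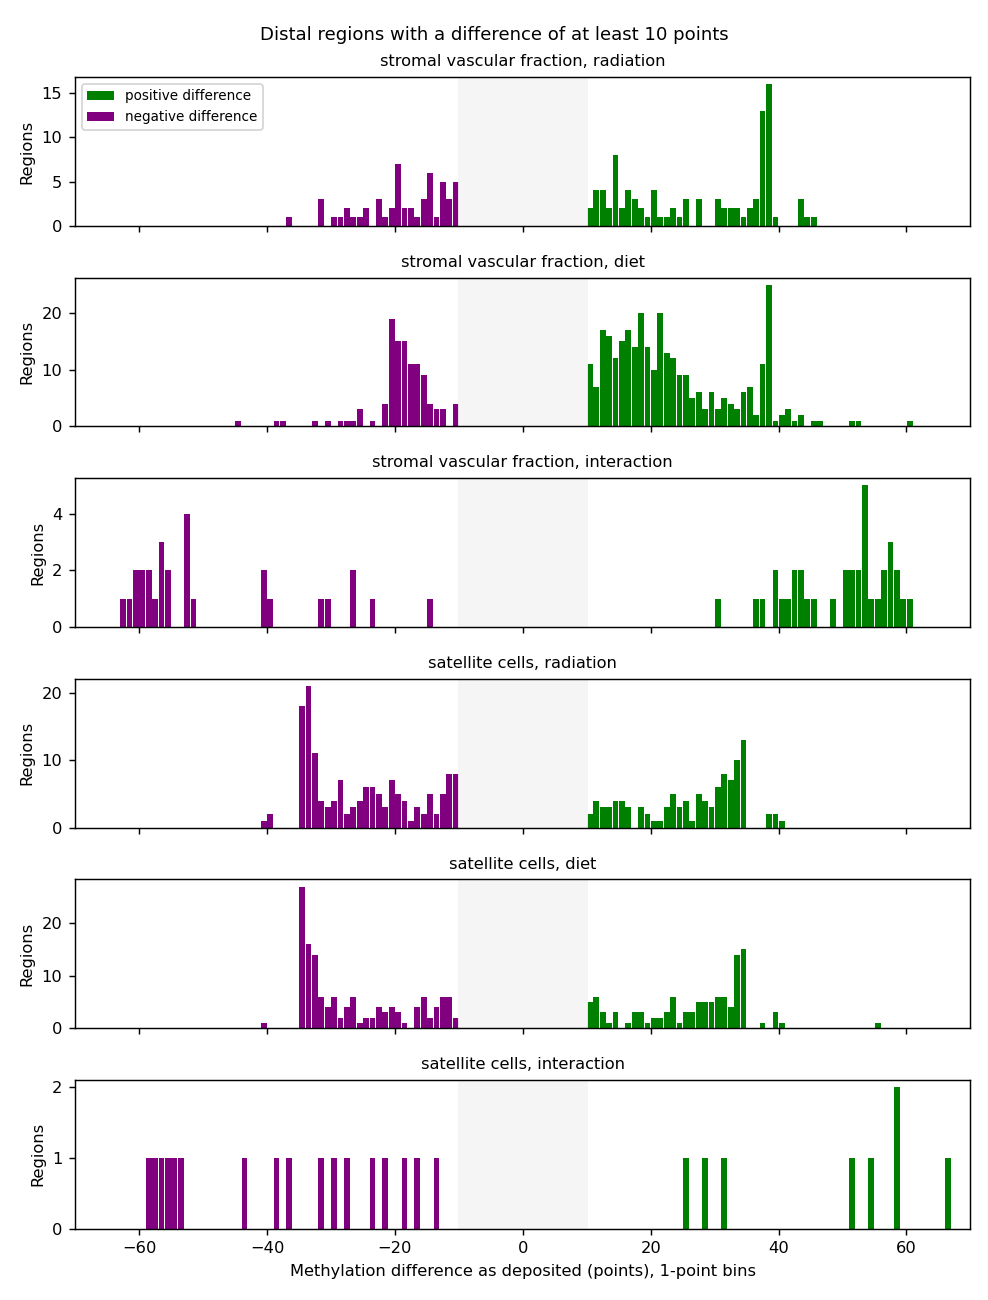
Number of distal regions (y axis) by methylation difference in points as deposited (x axis), in bins of 1 point, for regions differing by at least 10 points in each of the 6 tables. The fullest bins are 38 to 39 points on the positive side in SVF radiation and diet, 20 to 21 points on the negative side in SVF diet, and 33 to 35 points on both sides in satellite radiation and diet.

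Most loci held 1 distal region, 238 of 265 in SVF radiation, 468 of 518 in SVF diet, 274 of 332 in satellite radiation and 262 of 320 in satellite diet. The loci with several regions often held both signs. In SVF radiation this was so in 21 of 27. The counts were 29 of 50 in SVF diet, 48 of 58 in satellite radiation and 47 of 58 in satellite diet, and the largest locus held 12 regions. Neighbouring regions are not counted as independent.

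The genes with the most distal rows were Lincppara with 30, Mir6951 with 29, Nupl1 with 23, Gclc with 22 and Smug1 with 20. Lincppara is a long non-coding RNA gene near Ppara. The authors' deposited SVF diet table held 10 regions near it, 6 positive and 4 negative, from -20.5 to 38.5 points. Near Smug1, 12 distinct intervals lay within 238 bases on chromosome 15 from 103182433 to 103182670. The deposited satellite radiation table gave positive differences for 4 of 9, from -34.6 to 33.8 points. Near Nupl1, a nuclear pore gene, 11 intervals lay within 114 bases on chromosome 14 from 60177225 to 60177338, all inside the long non-coding RNA gene Gm33582. The deposited satellite radiation table gave differences from -34.5 to 1.22 points for them. Near Gclc, a glutathione synthesis enzyme gene, 13 intervals lay within 220 bases on chromosome 9 from 77750707 to 77750926, from -33.6 to 27.5 points in the deposited satellite diet table.

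The distal rows lay a median of 27596 bases from the nearest start, and 61.8% lay upstream of it. Under 10000 bases lay 21.9%, from there to 50000 bases 47.2%, to 100000 bases 16.6%, to 500000 bases 12.4% and beyond that 1.85%. The closest was 3037 bases upstream of Msx1os, an antisense gene of the homeobox gene Msx1, and the farthest 1501257 bases from Olfm4. Over the tables together, the share of small differences was lower beyond 50000 bases than nearer. The share under 1 point over the first 4 bins was 27.7%, 26.6%, 15.4% and 7.26%, while the share at 10 to 30 points was 30.4%, 34.8%, 39.9% and 46.8%. From the first to the fourth bin the share under 1 point went from 40.3% to 4.88% in SVF radiation, from 16% to 7.04% in SVF diet, from 20.8% to 10.9% in satellite radiation, with 31.5% in the second bin, and from 33.7% to 2.17% in satellite diet. Beyond 500000 bases, where only 37 rows lay, the share under 1 point was 10.8% over all tables. The median size over all tables was 13.5 points in the nearest bin and 14.8 points in the bin up to 500000 bases, but single tables differed. From the nearest bin to that bin it went from 8.14 to 13.1 points in SVF radiation, from 16.7 to 17.4 in SVF diet, from 14.5 to 11.7 in satellite radiation and from 10.98 to 12.8 in satellite diet. In the interaction tables it went from 2.03 to 42.1 points in SVF and from 1.22 to 7.58 in satellite cells, over 17 and 18 rows in the nearest bin.

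**Figure D3:**
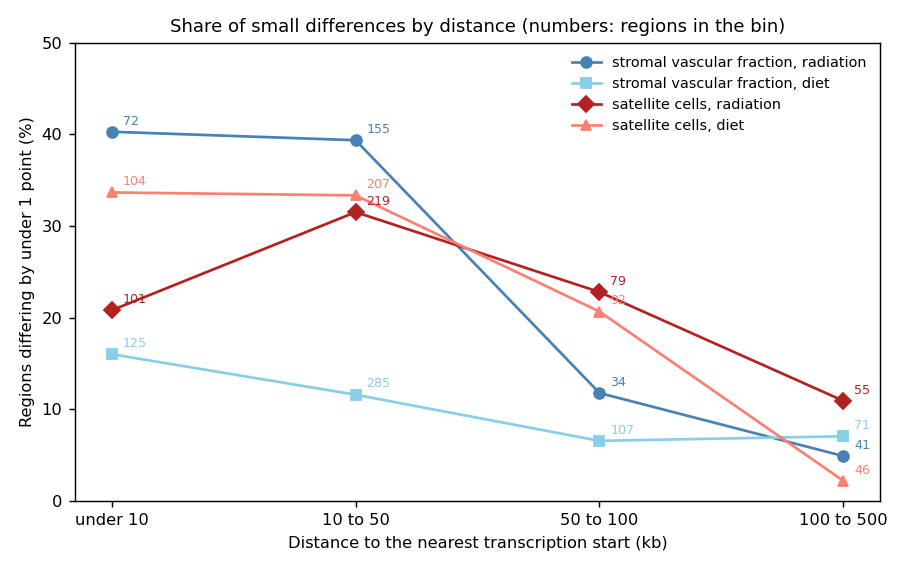
Share of distal regions differing by under 1 point (%), by distance to the nearest transcription start in kb, for the radiation and diet tables. The number beside each point is the number of regions. From the nearest to the farthest bin shown, the share goes from 40.3% to 4.88% in SVF radiation and from 33.7% to 2.17% in satellite diet.

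Few distal regions were listed in both cell types. For radiation, 25 of 309 SVF regions (8.09%) overlapped a listed satellite cell region by at least 1 base, and 30 of 462 satellite regions (6.49%) overlapped an SVF region. Over all listed regions these shares were 24.2% and 15.7%. For diet, 36 of 595 SVF regions (6.05%) and 44 of 460 satellite regions (9.57%) overlapped, against 21.1% and 20.2%. Of the shared SVF regions 12 of 25 had the same sign in both cell types for radiation and 19 of 36 for diet. At 10 points or more in both, these were 3 of 5 and 7 of 12. For each SVF region 1 pair was counted, that with the largest smaller difference, or the first listed among ties. The counts depend on this choice. Near Tle2 the SVF radiation region (-0.16 points) overlapped satellite regions with 0.41 points, counted here, and -31.2 points. Near Gpr63 an SVF region with -0.11 points overlapped satellite regions with 1.10 points, counted here, and -33.9 points. The sources used here do not say whether a positive sign stands for the same treatment in both cell types.

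A region 43265 bases upstream of Chd7, a chromatin remodeller gene, had large positive differences in both cell types for radiation and diet. This was not so at every satellite region it overlapped. The authors' deposited diet tables gave 38.5 points in SVF and 34.3 points in satellite cells, and 38.5 and 34.5 points for radiation. Regions near Fam161a, a gene of the photoreceptor cilium, and the cyclin gene Ccnd1 did likewise, with 38.1 and 33.4 points for Fam161a and 35.0 and 30.3 points for Ccnd1 in the deposited diet tables. The Chd7 interval of SVF also overlapped satellite regions with -0.36 and -0.66 points for diet and -0.04 points for radiation. That of Ccnd1 overlapped others with -1.53 points for diet and -0.60 points for radiation. A single SVF position near Fam161a had -1.64 points for diet. In the deposited SVF interaction table a region 43265 bases from the start of Chd7 had -60.1 points.

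Opposite signs stood at other genes. The reprogramming factor gene Klf4 had 38.3 points in SVF and -27.3 points in satellite cells, and Prrc2b 35.8 and -29.2 points, in the authors' deposited diet tables. In the deposited radiation tables the region near Ppp1r21 had 38.2 points in SVF and -33.9 points in satellite cells, and that near Gpr161, a cilium receptor gene, -21.9 and 31.3 points. The deposited interaction tables gave -51.2 points in SVF and 0.24 points in satellite cells at a single position near Ppp1r21. A region on chromosome 1 from 23214881 to 23214930, 57388 bases upstream of the microRNA gene Mir30a, had 25.7 points in SVF and 12.5 points in satellite cells in the deposited diet tables.

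**Figure D4:**
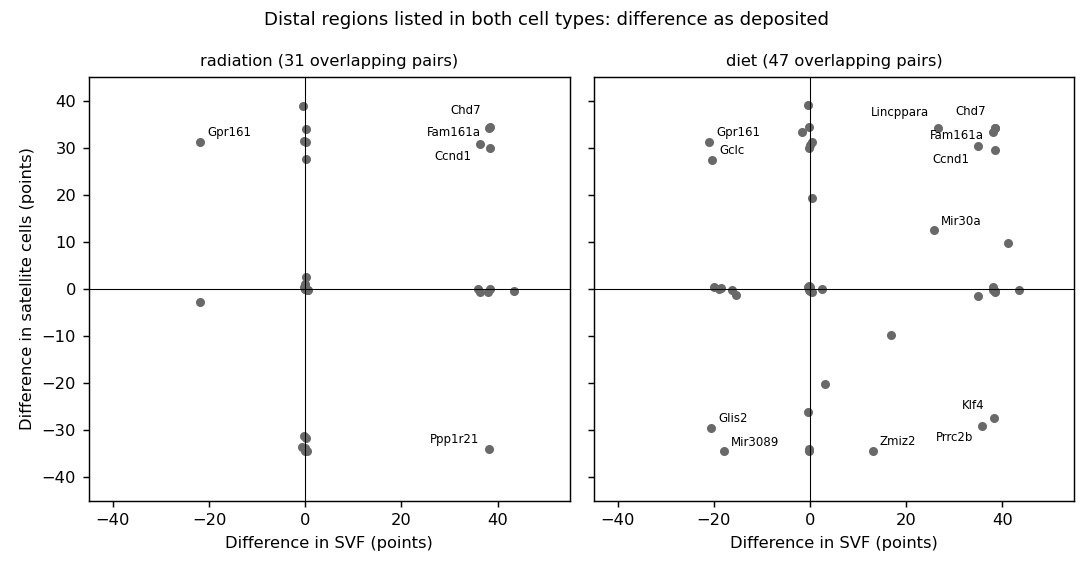
Difference in methylation as deposited, in points, of overlapping distal regions in SVF (x axis) and satellite cells (y axis), for radiation and diet, with the nearest gene where both reach 10 points in size. Points lie in all 4 quadrants for diet, with the labelled pairs of Chd7 and Fam161a positive in both cell types and those of Klf4 and Prrc2b opposite.

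Nearest genes were also read by function, from lists of genes of the tissues and treatments. Distal rows were only 4.70 to 7.47% of a table, so few or 0 rows for a list are not read as a result. Of 33 genes of adipocyte formation and adipokines, 6 were nearest to 10 distal rows in SVF and 3 to 7 rows in satellite cells. Of these, 8 SVF rows were in the diet table, 3 positive and 5 negative (67.1% of all distal rows of that table were positive). Of the 8, 7 differed by 10 points or more (71.6% of all distal rows of that table). Dlk1, which restrains adipocyte formation and is imprinted, had a region 53166 bases upstream on chromosome 12 from 109399657 to 109399697 with 40.4 points in the authors' deposited SVF diet table. The adiponectin gene Adipoq had -5.74 points in the deposited satellite diet table. Of 34 insulin and glucose genes, 5 were nearest to 10 SVF rows, 6 of 7 of them positive for diet (67.1% of all distal rows of that table), and 1 gene to 1 satellite row. The deposited tables gave 37.4 points near the phosphatase gene Ptpn1 for SVF radiation and -2.08 points near Socs3, an inhibitor of cytokine and insulin signalling, for satellite diet.

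Of 34 satellite cell and myogenic regulators, 4 were nearest to 4 SVF rows and 3 to 4 satellite rows. The stem cell factor gene Pax3 had a region 264585 bases from its start with -12.2 points in the authors' deposited satellite diet table, and a position 4541 bases upstream with -39.6 points in the deposited SVF interaction table. Sox8 had a position with -13.9 points in the deposited satellite radiation table. Of 48 Wnt genes, 6 were nearest to 17 SVF rows and 3 to 5 satellite rows, with 9 of 13 SVF diet rows (67.1% of all distal rows) and 1 of 5 satellite radiation rows (45.7%) positive. The Wnt ligand gene Wnt7b had 37.7 points in the deposited SVF diet table, 53187 bases upstream, and 28.6 points in the deposited satellite radiation table, 18358 bases upstream. Wnt2b, another ligand gene, had -58.1 points in the deposited SVF interaction table. Of 34 TGF-beta and BMP genes, 2 were nearest to SVF rows and 0 to satellite rows, and the inhibitor gene Smad7 had 22.1 points in the deposited SVF diet table.

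Developmental transcription factor genes outside the Hox clusters were the longest list and had the most rows, with 15 of 111 nearest to 21 SVF rows and 18 to 24 satellite rows. Of the list's rows over all annotations, 4 of 18 for radiation and 14 of 54 for diet were distal in SVF. In satellite cells these were 11 of 57 and 11 of 48. Distal rows were 5.63% and 7.44% of the 2 SVF tables and 4.70% and 4.78% of the satellite tables. Other lists also had distal shares above those of the tables. In SVF diet 13 of 35 Wnt rows, 8 of 27 adipocyte rows and 7 of 31 insulin and glucose rows were distal. In satellite radiation this held for 5 of 9 immune marker rows. Some lists lay below, with 1 of 29 TGF-beta and BMP rows in SVF diet and 0 of 32 insulin and glucose rows in satellite radiation. These shares were not tested. In satellite cells 3 of 11 radiation rows (45.7% of all distal rows) and 8 of 11 diet rows (50.7%) were positive. The authors' deposited tables gave -33.6 points near Nr2f2 for satellite diet, -33.2 near Meis1 for satellite radiation, and -57.1 near En2 for SVF interaction. The 52 Hox genes had 1 row in each cell type, Hoxb1 in SVF with 21.1 points and Hoxc10 in satellite cells with -28.5 points in the deposited diet tables.

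The remaining lists held few distal rows. Over all annotations the DNA methylation list had 21 radiation and 25 diet rows in SVF, and the p53 and DNA damage list 11 and 12. In satellite cells the p53 and DNA damage list had 14 and 13. Of 48 imprinted genes 3 were nearest to 4 SVF rows and 1, Dcn, to 1 satellite row, with -9.84 points in the authors' deposited radiation table. Of 23 genes of DNA methylation 0 were nearest to SVF rows and 2, Gadd45b and Zbtb33, to 5 satellite rows. Of 37 genes of the p53 and DNA damage response, 1, Parp1, had 1 SVF row, with 53.8 points in the deposited interaction table, and 0 had a satellite row. Of 28 immune markers 0 had an SVF row and 3 had 5 satellite radiation rows, 2 positive and 3 negative, among them Irf8 with -18.0 points and Runx1 with -16.0 points in the deposited radiation table. Of 20 endothelial and perivascular markers 1, Mcam, had 1 SVF row, with 14.7 points in the deposited diet table, and 0 had a satellite row.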

How the data were processed

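RRBS tables of SVF and satellite cells, 3 for each cell type, were used as deposited. The submitters' processing notes name the build mm10 and the tools Bismark 0.14.4, Bowtie2 2.2.6, cutadapt 1.8.3 and Trim Galore 0.4.0, without their roles. The notes state neither the test nor the rule for listing a region. Per the file headers, the authors deposited for each region a median p-value, and as a fraction the median methylation difference (printed in points). The 12 columns with values of unnamed groups were not used here. The deposited RNA table gave log2 fold changes, log2 CPM and adjusted p-values, for which the authors named edgeR, per the submitters' processing notes. The log2 fold change over both diets was divided by 2. No refit was possible, and the median p-values call nothing here. Members, gene lists and comparisons were chosen with earlier results of these data known. Named regions are the 5 largest positive and negative differences of each radiation and diet table, 3 for interaction, shared regions by their smaller difference, list genes by size, genes with the most rows, and the closest and farthest, of which a few are not reported here. Alternatives used p at most 0.001, at least 10 points, 1 region per gene, over 50000 bases from a start, autosomes, 50 bases or longer and merged neighbours. Python 3.11.15, pandas 2.3.3 and SciPy 1.17.1 were used, and the functions were tested on simulated data. RefSeq tables are of GRCm38.p6.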

Additional observations from a re-analysis of the deposited data

How the results depend on the processing

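Of 110 alternative values for 16 results, 90 stayed within the exact 95% interval of the value as listed and 20 moved. These intervals treat regions as independent, which neighbours are not. The positive share in SVF radiation (53.4%) was 64.7% at 10 points or more, and its median size was 14.7 points beyond 50000 bases. In SVF diet the share (67.1%) was 74.2% at 10 points or more, 61.0% at 50 bases or longer and 71.0% with neighbours merged, and the median was 18.1 points with 1 region per gene and 18.8 at 50 bases or longer. In SVF interaction the share (51.1%) was 67.6% beyond 50000 bases, 36.4% of 11 regions at 50 bases or longer and 65.2% in no RefSeq gene, and the median was 52.7 points for the 11 long regions. In satellite diet the share (50.7%) was 45.2% at 10 points or more and 57.0% beyond 50000 bases, and the median was 15.5 points with 1 region per gene and 15.4 with neighbours merged. In satellite interaction the share (54.4%) was 32.0% at 10 points or more, and the median was 5.55 points beyond 50000 bases and 1.22 at 50 bases or longer. Overlap in radiation at 50 bases or longer was 13.0% of SVF and 10.1% of satellite regions. The setting on RefSeq genes was chosen after seeing the data. In both radiation tables the interval of the share as listed held an even split. It ran from 47.7 to 59.1% in SVF and from 41.1 to 50.3% in satellite cells. In 3 other tables the majority sign changed between settings. Beside the values above, the share was 48.8% with neighbours merged in SVF interaction, and 47.7% with 1 region per gene, 48.1% with neighbours merged and 47.2% in no RefSeq gene in satellite diet. The cause of these shifts was not tested. No paired analysis was possible because the tables hold no values of single samples, and for the same reason no replicate was left out. Depth is unknown and limits how firmly single regions can be read.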

Other observations

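The nearest genes of distal regions were about as often changed in RNA in irradiated satellite cells as those of all listed regions. The nearest genes of the distal satellite radiation regions numbered 316, and 14 of them (4.43%) were among the 827 genes with an adjusted p under 0.05 over both diets in the authors' deposited RNA table, against 4.72% of the nearest genes of all listed regions. Of the 14, 10 had higher and 4 lower RNA in irradiated mice, against 124 and 98 over all listed regions. The RNA values below are the deposited log2 fold changes over both diets divided by 2. The receptor gene Gpr63 had a region 6812 bases upstream with -33.9 points in the deposited tables. Its RNA stood at -0.58 on the log2 scale after this division (deposited adjusted p = 0.00513). Eef2k, the kinase of elongation factor eEF2, had a position with -33.7 points and RNA at 0.49 (adjusted p = 0.0328) in the deposited tables. The chromatin remodeller gene Arid1b had 32.0 points, with RNA at 0.23 (adjusted p = 0.0499) there. Smaller differences lay near the oxygen sensor gene Egln3, with 15.8 points and RNA at 0.51 (adjusted p = 0.0120), and near Palmd, with 14.6 points and RNA at 1.72 (adjusted p = 7.27e-06), in the deposited tables. Since the groups behind the sign are unnamed, no direction of methylation can be set against these changes.

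Gadd45b, a stress gene linked to DNA demethylation, had 1 interval with unlike differences in 2 tables. The authors' deposited satellite tables gave 0.0841 points for radiation and -34.5 points for diet on chromosome 10 from 80939808 to 80939871. By chromosome, the share of listed rows that were distal ran from 2.56% of 1248 on chromosome 19 to 10.5% of 1498 on chromosome 15 among autosomes. Chromosome 15 holds the Lincppara, Mir6951 and Smug1 clusters, and chromosome 14, at 9.52%, the Nupl1 and Myoz1 clusters.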
